A study of Homo sapiens with 6 samples.

Results

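The collagen, laminin and integrin genes are the chains of the extracellular matrix and the cell-surface receptors that hold cells to it. They were chosen by symbol, as protein-coding genes named like a collagen chain, a laminin chain or an integrin subunit, and by expression level, with a level of at least 1 CPM in any of 6 RNA libraries, where CPM is a gene's count scaled to the library total. This gave 63 of the 60671 genes in the table, namely 27 collagen genes, 11 laminin genes, 23 integrin genes and 2 genes that match by symbol only. Those 2 are ITGB3BP, which encodes a centromere protein, and ITGBL1, which encodes a secreted protein related to integrin beta chains. Another 21 protein-coding genes with such symbols stayed under 1 CPM in every library. The highest CPM of the members nearest the limit was 1.21 for COL2A1 and 1.36 for ITGAM, against 0.914 for COL20A1 and 0.874 for COL1A2 just outside it. Because expression chose the members, 12 of them are there through DMSO libraries alone and 1, COL2A1, through an AL-X library alone. Those 13 had to differ between treatments in at least 1 line, so counts over the members describe them and support nothing.

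Cells were treated for 48 h with AL-X, the code name of 9α,11αOH-KA (9α,11α-dihydroxy-kaurenoic acid, a diterpenoid) at 10 µg/mL, or with DMSO as the control. The cells were A549, HCC827 and H1975, established non-small cell lung cancer lines labelled WT, of which HCC827 and H1975 are known to carry mutant EGFR. Each line gave 1 AL-X and 1 DMSO library, so a shared effect is tested with lines as replicates, and a single line allows no test. Library totals ran from 98139178 to 121552821 counts with AL-X and from 104648304 to 126840915 with DMSO. Mitochondrial genes took 0.0201% to 0.656% of counts with AL-X and 6.41% to 6.87% with DMSO, and with those genes left out the counts of members called or past 2-fold were the same. The members took 0.345%, 0.634% and 0.708% of counts with AL-X in A549, HCC827 and H1975, against 0.836%, 0.613% and 0.600% with DMSO. Epithelial markers summed to 3637 to 6780 CPM with AL-X and 4349 to 5872 CPM with DMSO, with 6 to 8 of 8 genes at 1 CPM or more. Fibroblast markers summed to at most 4.21 CPM with AL-X and 10.4 CPM with DMSO, and the leukocyte gene PTPRC was at 0 in every library. The 8 alveolar type II markers summed to 25.6, 150.3 and 82.4 CPM with AL-X in A549, HCC827 and H1975, against 91.8, 731 and 251 CPM with DMSO, so all 3 lines had a lower sum with AL-X. Of them 1, 5 and 3 reached 1 CPM with AL-X, against 1, 6 and 3 with DMSO, and SFTPC, the defining surfactant gene, was at 0 in HCC827 and H1975. The part of this difference in the members' folds was not tested.

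Collagens assemble as triple helices of 3 chains. Type IV collagen forms the sheet of the basement membrane, fibrillar collagens form the fibres of the stroma, and others anchor or decorate them. Laminins are cross-shaped trimers of an alpha, a beta and a gamma chain, and integrins are pairs of an alpha and a beta subunit that bind collagen, laminin or the RGD sequence of fibronectin and vitronectin. Lung epithelium sits on a basement membrane rich in type IV collagen and laminin, to which it is held by α3β1 and α6β4 integrins. A trimer needs all of its chains, so the chains are described here together.

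No member passed the test for a shared AL-X effect across the 3 lines, and the members lay mostly on the lower side. Of 57 members tested, 43 had a fold below 0 and 14 above, with a median log2 fold of -0.997. Over all 20344 genes tested 11858 lay below 0 and 8486 above, with a median of -0.27. Some members tested, such as ITGB8 and COL24A1, entered through DMSO libraries alone and so had to be lower by CPM in at least 1 line. The choice of members thus partly set their tally and median, while all genes tested were not chosen in this way. At Benjamini-Hochberg adjusted p under 0.05 by edgeR's quasi-likelihood test, with the line as a block, 0 members were called, against a background of 0.256% of all genes, 0.0983% higher and 0.157% lower. At unadjusted p under 0.05 there were 11 members lower and 1 higher, where all genes gave 10.2% lower and 5.48% higher. DESeq2 called 6 of 57 members lower (ITGB8, COL4A5, LAMA2, LAMA5, ITGA1 and COL9A2), against 7.51% of the 18766 genes to which it gave an adjusted p. Limma-voom called ITGB8 and COL4A5 lower, where it called 1.66% of all genes. Both tools called no member higher. With 1 library for each treatment of a line, the p-values rest on the spread from line to line alone. A lower level in bulk RNA can be fewer expressing cells or less RNA in each, which cannot be told apart.

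**Figure D1:**
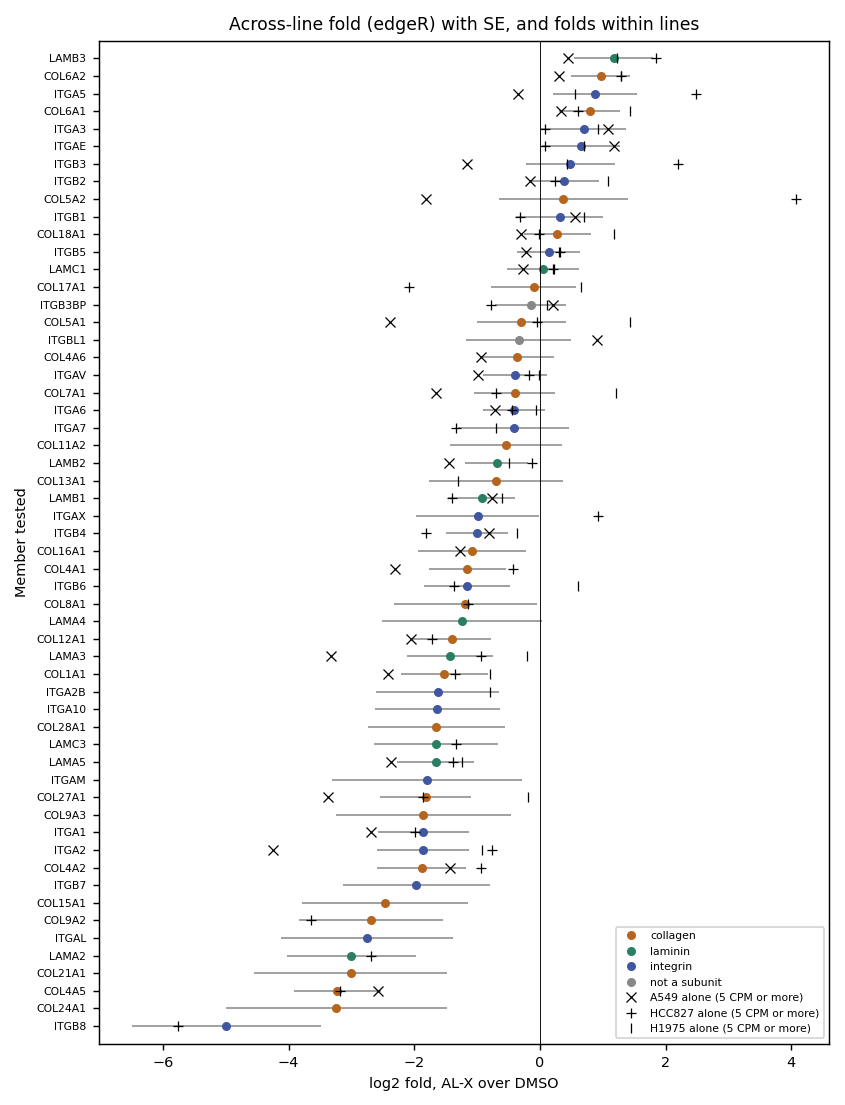
Across-line log2 fold of AL-X over DMSO (dots, with the standard error as bars) for 56 of the 57 members tested, coloured by family, beside the folds of single lines in which a library reached 5 CPM. LAMB3 (1.17) and COL6A2 (0.97) stand at the top and ITGB8 (-4.99), COL24A1 (-3.24) and COL4A5 (-3.22) at the bottom. ITGB8 and COL24A1 are members through DMSO libraries alone. None of the members named here passed the test.

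The counts differed between the lines. Levels in a line are CPM scaled by the trimmed mean of M values (TMM). A member was counted where the libraries of a line differed by 2-fold and the higher of them reached 5 CPM. In A549 3 members were higher by this rule and 19 lower of 38, against a background of 28.3% higher and 33.0% lower. In HCC827 5 were higher and 16 lower of 41, against 11.0% and 17.6%. In H1975 8 were higher and 2 lower of 31, against 14.9% and 18.6%. Of the collagens, 0 were higher and 12 lower of 16 in A549, 2 higher and 7 lower of 15 in HCC827, and 5 higher and 1 lower of 9 in H1975. Scaling moved these counts. TMM factors were 0.554 with AL-X and 1.10 with DMSO in A549, 1.27 and 1.16 in HCC827, and 0.902 and 1.198 in H1975. With library totals as the only scaling the median log2 fold of all genes considered came to -1.10 for A549 (-0.11 on TMM scaling), 0.09 for HCC827 (-0.04 on TMM) and -0.38 for H1975 (0.03 on TMM), a shift against which folds are to be read. The members then counted 1 higher and 29 lower of 38 in A549, against 12.7% and 52.0% of all genes, and 3 higher and 7 lower of 31 in H1975, against 6.9% and 28.2%. The sign of 6 members in A549, 3 in HCC827 and 3 in H1975 turned with it.

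**Figure D2:**
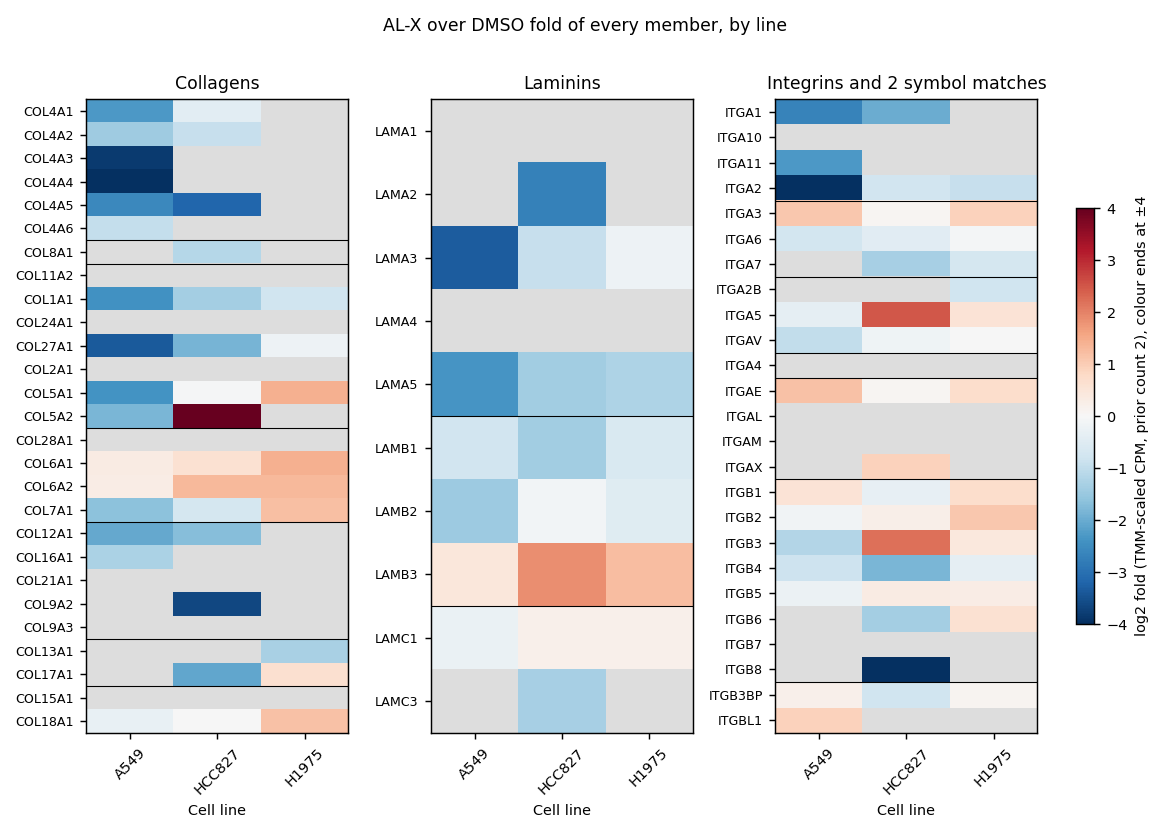
Within-line log2 fold of AL-X over DMSO for 62 of the 63 members, ordered by role within each family, with the lines in columns. Grey cells had under 5 CPM in both libraries. Type IV collagens are lower in A549. COL6A1 and COL6A2 are higher in each line, except that library totals turn them lower in A549, and COL5A2 stands at 4.08 in HCC827.

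Most members are long genes. Their median genomic span was 86.6 kb and their median merged exonic length 7.45 kb, against 32.8 kb and 5.03 kb for the 14071 protein-coding genes with at least 1 CPM in any library. Across protein-coding genes, the fold was lower for longer exons in A549 (Spearman rho -0.332, n = 10965) and H1975 (-0.336, n = 11096) and little in HCC827 (-0.0621, n = 11273). Genes are not independent points, and all of them share the same libraries. Across the members the same rho came to -0.704 in A549 (n = 38), -0.407 in HCC827 (n = 41) and -0.186 in H1975 (n = 31). Among all protein-coding genes with a span of at least 50 kb and exons of at least 6 kb, A549 had a median log2 fold of -1.05, HCC827 of -0.18 and H1975 of -0.42. The members of that size stood at -1.62 in A549 (n = 26), -0.93 in HCC827 (n = 25) and 0.22 in H1975 (n = 15). In A549 15 of 26 such members were 2-fold lower, against 51.5% of all genes of that size, and in HCC827 11 of 25, against 20.4%. In H1975 3 of 15 were 2-fold higher and 1 lower, against 3.92% and 25.8%. The part of length in these folds was not tested.

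**Figure D3:**
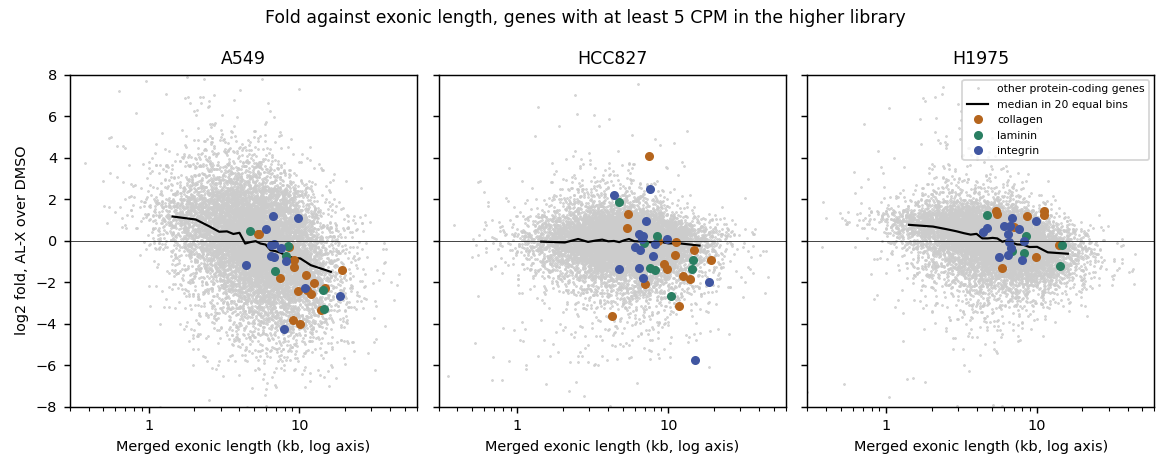
Within-line log2 fold of AL-X over DMSO against merged exonic length (log axis) for protein-coding genes that reached 5 CPM in either library, 1 panel a line. The black line joins medians of 20 bins of equal size and the coloured points are collagen, laminin and integrin members, with 1 member not drawn as such. Genes beyond 8 log2 units lie outside the panels. The median slopes down in A549 and H1975. In A549 14 of 16 collagens lie below 0, against 5721 of 10965 protein-coding genes, and COL4A3 and COL4A4 are there through DMSO libraries alone.

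Type IV collagen, the network of the basement membrane, was lower with AL-X in A549, where all 6 of its genes had 5 CPM or more and 5 were 2-fold lower. In that line 33.0% of all genes were 2-fold lower, and 52.9% of protein-coding genes with a span of 100 kb and over. The 6 type IV genes lie as 3 head-to-head pairs, COL4A1 with COL4A2 on chromosome 13, COL4A3 with COL4A4 on chromosome 2 and COL4A5 with COL4A6 on the X chromosome. COL4A1 (ENSG00000187498, GRCh38 chromosome 13, 110148963 to 110307233, span 158 kb, exons 14.7 kb) encodes the α1 chain, and COL4A2 (ENSG00000134871, 110305812 to 110513209, span 207 kb, exons 19.3 kb) the α2 chain. Their RefSeq starts are 127 bases apart, and the 126 bases between them are shown because both genes start from this stretch (GRCh38.p14, chr13:110307158-110307283, plus strand, reading towards COL4A2, with a CCAAT box and a GC box, GGGCGG, in capitals).
COL4A1 to COL4A2: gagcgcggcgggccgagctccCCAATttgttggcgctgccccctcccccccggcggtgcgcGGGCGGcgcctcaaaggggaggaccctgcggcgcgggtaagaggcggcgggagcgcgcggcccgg
Searched on both strands in the 250 bases before each RefSeq start, CCAAT was in 32.0% of all 35116 windows and GGGCGG in 42.6%. The 47 members with a window had 63 windows between them, of which 11 held CCAAT and 37 held GGGCGG.

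COL4A1 stood at 17.3, 5.29 and 0.464 TMM-scaled CPM with AL-X in A549, HCC827 and H1975, against 85.7, 7.16 and 0.774 with DMSO. COL4A2 stood at 98.2 and 20.5 with AL-X in A549 and HCC827, against 265 and 39.2 with DMSO. In H1975 it had 0 counts with AL-X and 35 with DMSO, at least 9.42-fold lower against a floor of 3 counts per library. Each line had less of both chains with AL-X, while the lines differed among themselves by more, so the treatment groups overlapped. The across-line log2 fold was -1.15 for COL4A1 (SE 0.61, edgeR adjusted p = 0.375) and -1.89 for COL4A2 (SE 0.71, edgeR adjusted p = 0.246). COL4A3 and COL4A4, the chains of the lung and kidney network, reached 5 CPM in A549 only. COL4A3 (span 150 kb, exons 9.12 kb) had 1.31 TMM-scaled CPM with AL-X and 18.7 with DMSO there, and COL4A4 (span 162 kb, exons 10.1 kb) had 1.40 and 22.6. Their A549 log2 folds were -3.83 (95% counting interval -4.17 to -3.54) and -4.0 (-4.33 to -3.72). Both are members through DMSO libraries alone, and neither passed the filter of the across-line fit.

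COL4A5 (ENSG00000188153, X chromosome, 108439844 to 108697545, span 258 kb, exons 11.9 kb), the α5 chain, had the lowest across-line p of the collagens. It stood at 14.8 and 3.42 TMM-scaled CPM with AL-X in A549 and HCC827, against 88.1 and 31.1 with DMSO. H1975 held 0 counts with AL-X and 20 with DMSO, at least 5.38-fold lower. The fold was -3.22 (SE 0.69, edgeR adjusted p = 0.0888), in the same direction in 3 of 3 lines. DESeq2 (adjusted p = 0.000457) and limma-voom (adjusted p = 0.0256) called it, with a range of 0.000457 to 0.732 over 12 alternatives. Its head-to-head partner COL4A6 (span 284 kb, exons 9.28 kb) stood at 40.4, 3.59 and 0.119 with AL-X in A549, HCC827 and H1975, against 77.6, 2.37 and 0.207 with DMSO. The starts of this pair are 380 bases apart, and the ratio of COL4A6 to COL4A5 was higher with AL-X, by 1.63 (log2) in A549 and 3.78 in HCC827, a comparison within libraries that scaling cannot move. H1975 held too few counts for that ratio.

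Fibrillar collagens differed between lines. COL5A2 (ENSG00000204262, chromosome 2, 189031896 to 189225312, span 193 kb, exons 7.45 kb), a chain of the type V collagen that starts fibril assembly, stood at 53.6, 11.5 and 2.82 TMM-scaled CPM with AL-X in A549, HCC827 and H1975, against 189, 0.665 and 3.40 with DMSO. It was lower in A549 (log2 fold -1.82), higher in HCC827 (4.08, 95% counting interval 3.82 to 4.42) and little different in H1975 (-0.27). The response in HCC827 differed from that of the other lines by 5.16 log2 units (SE 1.23, edgeR interaction adjusted p = 0.0147), on 1 residual degree of freedom, which takes the spread of HCC827 to equal that of the other lines. COL5A2 was the only member called of 57, against a background of 0.261% of all genes. At unadjusted p under 0.05 there were 4 members, COL5A2, COL17A1, ITGA5 and ITGB3, where all genes gave 8.19%. The same test of A549 called 0 members, against 0.28% of all genes, and that of H1975 called 0, against 0.0%. The call was lost with library totals (difference 5.998, adjusted p = 0.507) and with no filter on low counts (difference 5.35, adjusted p = 1), although neither difference was smaller, and over the 5 alternatives the adjusted p ran from 0.0109 to 1. COL5A1 (span 203 kb, exons 11.2 kb), its partner chain, stood at 20.2, 11.5 and 178 with AL-X, against 106, 11.97 and 66.0 with DMSO, so it was lower in A549 (-2.39) and higher in H1975 (1.43). In HCC827 it was near 0 at -0.05 on TMM scaling and 0.08 with library totals. COL1A1 (span 18.3 kb, exons 9.82 kb), the main chain of type I collagen, stood at 1.17, 6.27 and 7.89 with AL-X, against 6.37, 16.0 and 13.7 with DMSO. Its fold was -1.52 (SE 0.69, edgeR adjusted p = 0.316), lower in 3 of 3 lines. COL27A1 (span 157 kb, exons 14.0 kb) had a log2 fold of -3.37 in A549, of -1.86 in HCC827 and of -0.19 in H1975, with an across-line fold of -1.82 (SE 0.73, edgeR adjusted p = 0.269). COL2A1, the collagen of cartilage, had 147 counts with AL-X in A549 and 0 with DMSO, at least 88.6-fold higher on TMM scaling against a floor of 3 counts. Its log2 fold there was 6.98 on TMM scaling and 6.11 with library totals. COL2A1 is a member through that AL-X library alone, so its A549 fold follows from how it was chosen. In HCC827 it had 0 counts with AL-X and 11 with DMSO.

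The type VI chains COL6A1 and COL6A2 and type VII collagen were 2-fold higher in H1975, as were COL5A1 and COL18A1, while with library totals only COL5A1 and COL6A1 of these stayed past 2-fold. COL6A1 (span 23.3 kb, exons 5.34 kb) and COL6A2 (span 34.8 kb, exons 5.39 kb), chains of beaded filaments that link cells to the stroma, are neighbours on chromosome 21. COL6A1 stood at 59.8, 66.5 and 280 TMM-scaled CPM with AL-X in A549, HCC827 and H1975, against 47.5, 43.6 and 103 with DMSO. COL6A2 stood at 28.96, 65.1 and 149 with AL-X, against 23.4, 26.5 and 61.3 with DMSO. Both chains were higher in each line on TMM scaling, although in A549 they turned to -0.66 and -0.69 with library totals. The across-line folds were 0.79 (SE 0.48, edgeR adjusted p = 0.437) and 0.97 (SE 0.47, edgeR adjusted p = 0.345). COL7A1 (span 31.2 kb, exons 11.1 kb), the anchoring fibril that ties the basement membrane to the stroma, stood at 116, 5.40 and 331.6 with AL-X, against 365, 8.75 and 143 with DMSO. It was lower in A549 (-1.65) and HCC827 (-0.69) and higher in H1975 (1.21).

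The remaining collagens decorate fibrils, span the membrane or carry glycosaminoglycan chains. COL18A1 (span 109 kb, exons 8.53 kb), a basement membrane collagen whose end fragment is endostatin, had with COL7A1 and COL6A1 the highest level per exonic length of the collagens over the DMSO libraries, at 23.9 CPM per kb. It stood at 344, 63.3 and 133 TMM-scaled CPM with AL-X in A549, HCC827 and H1975, against 423, 64.3 and 58.5 with DMSO. Only H1975 had a fold beyond 2, at 1.18 on the log2 scale. It shares 1401 exonic bases with SLC19A1 on the opposite strand, and since the strand setting is not given in the sources used here, reads there cannot be told apart. COL9A2 (span 17.3 kb, exons 4.22 kb), a fibril-associated chain, had in HCC827 the second lowest fold of the members that reached 5 CPM, at 1.13 with AL-X and 14.4 with DMSO (log2 fold -3.65). COL12A1 (span 122 kb, exons 12.5 kb) had a log2 fold of -2.05 in A549, of -1.71 in HCC827 and of -0.40 in H1975. COL13A1 (span 162 kb, exons 5.89 kb), a membrane collagen, stood at 2.39, 0.441 and 4.62 with AL-X in A549, HCC827 and H1975, against 0.673, 2.14 and 11.4 with DMSO. It was higher in A549 (log2 fold 1.80, 95% counting interval 1.44 to 2.23) and lower in HCC827 (-2.23) and H1975 (-1.31), and it reached 5 CPM only in H1975. COL17A1 (span 54.7 kb, exons 7.07 kb), the membrane collagen of hemidesmosomes, stood at 2.78, 29.4 and 21.8 with AL-X in A549, HCC827 and H1975, against 1.43, 125 and 13.9 with DMSO.

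LAMA3 and LAMB3, chains of the same laminin trimer, lay on opposite sides of 0. They belong to laminin-332, the anchoring laminin of epithelia. LAMB3 (ENSG00000196878, chromosome 1, 209614870 to 209652466, span 37.6 kb, exons 4.69 kb), the β3 chain, stood at 38.5, 849.8 and 1185 TMM-scaled CPM with AL-X in A549, HCC827 and H1975, against 28.4, 236 and 508 with DMSO. LAMA3 (ENSG00000053747, chromosome 18, 23689443 to 23956222, span 267 kb, exons 14.7 kb), the α3 chain, stood at 16.1, 149.9 and 230.1 with AL-X, against 161, 286 and 265.5 with DMSO. Every line had less LAMA3 and more LAMB3 with AL-X, except that the log2 fold of LAMB3 in A549, 0.44 on TMM scaling, was -0.55 with library totals. Neither passed the test, with folds of 1.17 for LAMB3 (SE 0.63, edgeR adjusted p = 0.381) and -1.43 for LAMA3 (SE 0.68, edgeR adjusted p = 0.335).

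Within libraries, where scaling plays no part, the ratio of LAMB3 to LAMA3 counts was higher with AL-X, by 3.76 (log2) in A549, 2.78 in HCC827 and 1.43 in H1975 (mean 2.66 ± 1.17 SD, n = 3 lines, exact sign-flip permutation test, two-sided p = 0.25, the smallest 3 pairs allow). This ratio and the other ratios of chains were chosen after the values were seen, and LAMA3 is much the longer of the pair. Per kb of exon, LAMA3 had 0.609 CPM with AL-X and 12.1 with DMSO in A549, 13.0 and 22.7 in HCC827, and 14.1 and 21.7 in H1975. LAMB3 had 4.55 CPM per kb with AL-X and 6.68 with DMSO in A549, 231 and 58.4 in HCC827, and 228 and 129.8 in H1975. LAMA3 and LAMB3 were also the only members of the 47 with a window whose 250 bases before a RefSeq start hold the AP-1 motif TGANTCA. It was found in 2 of the 63 windows of members, against 6.57% of all windows. The windows are shown because both hold the motif while the folds of the chains lay on opposite sides (GRCh38.p14, motif in capitals, LAMA3 at chr18:23872770-23873019 on the plus strand, LAMB3 at chr1:209651375-209651624 on the minus strand, 1 of its 3 starts). Starts were picked for holding the motif. The LAMA3 window lies inside the annotated gene, well past its first base at 23689443, before an internal start. The folds count reads of the whole gene, not of that start.
LAMA3: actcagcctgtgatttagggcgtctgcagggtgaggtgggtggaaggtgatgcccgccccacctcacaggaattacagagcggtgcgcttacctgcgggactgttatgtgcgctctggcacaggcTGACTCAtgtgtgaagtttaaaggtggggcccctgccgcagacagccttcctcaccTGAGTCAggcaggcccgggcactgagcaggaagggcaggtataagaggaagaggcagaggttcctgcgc
LAMB3: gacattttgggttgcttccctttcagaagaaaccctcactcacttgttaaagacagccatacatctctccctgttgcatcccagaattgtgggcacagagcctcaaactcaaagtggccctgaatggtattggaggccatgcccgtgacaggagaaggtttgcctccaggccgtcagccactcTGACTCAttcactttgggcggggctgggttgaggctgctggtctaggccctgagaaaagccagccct
A match is a run of letters and does not show binding.

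**Figure D4:**
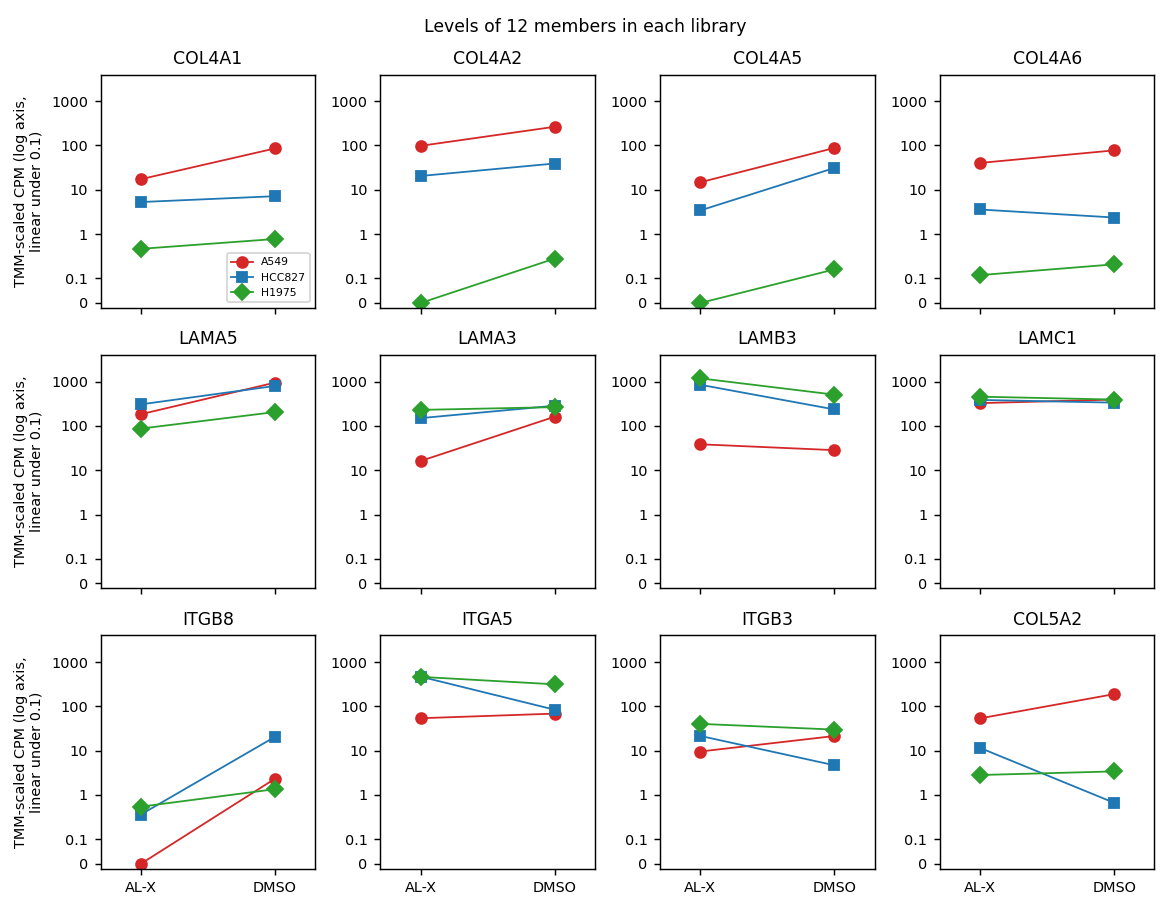
TMM-scaled CPM (log axis, linear under 0.1) of 12 members in every library, with AL-X on the left and DMSO on the right of each panel and 1 line joining the pair of each cell line. LAMA5 and ITGB8 are lower with AL-X in all 3 lines, LAMB3 is higher except that it turns lower in A549 with library totals, and COL5A2 crosses between lines.

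LAMA5 (ENSG00000130702, chromosome 20, 62307955 to 62367312, span 59.4 kb, exons 14.3 kb), the α5 chain of laminin-511, was at least 2-fold lower in all 3 lines. It was 1 of the 26 members with 5 CPM or more in each line, and the only 1 of them with such folds. The share of all genes was alike, at 3.63% of 10389. No member was 2-fold higher in all 3, where 2.66% of genes were. LAMA5 stood at 184, 306 and 87.1 TMM-scaled CPM with AL-X in A549, HCC827 and H1975, against 949, 799 and 205 with DMSO. The AL-X level in HCC827 lay above the DMSO level in H1975, so the groups overlapped although every line had less. The fold was -1.66 (SE 0.61, edgeR adjusted p = 0.239), and DESeq2 called it (adjusted p = 0.0221, range 0.0221 to 0.818 over 12 alternatives). LAMA5 shares 244 exonic bases with ADRM1 on the opposite strand. LAMB1 (span 79.5 kb, exons 8.14 kb), the β1 chain, stood at 289, 163 and 7.26 with AL-X, against 492, 433 and 11.0 with DMSO (fold -0.92, SE 0.53, edgeR adjusted p = 0.414). LAMC1 (span 122 kb, exons 8.41 kb), the γ1 chain, stood at 327, 386 and 457 with AL-X, against 394, 336 and 394 with DMSO (fold 0.05, SE 0.57, edgeR adjusted p = 0.974, and -0.37 with library totals). The ratio of LAMC1 to LAMA5 was higher with AL-X in each line, by 2.10 (log2) in A549, 1.59 in HCC827 and 1.45 in H1975 (mean 1.71 ± 0.34 SD, n = 3 lines, exact permutation p = 0.25, the smallest 3 pairs allow). The ratio of LAMB1 to LAMA5 had mixed signs, at 1.60 in A549, -0.02 in HCC827 and 0.64 in H1975. LAMA2 (span 633 kb, exons 10.4 kb), the muscle laminin chain, was low throughout. It stood at 0.0445, 0.857 and 0.138 with AL-X in A549, HCC827 and H1975, against 0.698, 5.62 and 0.798 with DMSO (fold -3.001, SE 1.03, edgeR adjusted p = 0.214), and DESeq2 called it (adjusted p = 0.00523, range 0.00523 to 0.625 over 11 alternatives).

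Among integrin alpha subunits, the collagen receptors ITGA1 and ITGA2 were lower in each line. ITGA2 (span 105 kb, exons 7.91 kb), which pairs with β1 to bind collagen, stood at 3.99, 112 and 138 TMM-scaled CPM with AL-X in A549, HCC827 and H1975, against 76.6, 191 and 263 with DMSO. Its fold was -1.86 (SE 0.74, edgeR adjusted p = 0.263), lower in 3 of 3 lines and furthest from 0 in A549 at -4.26 (95% counting interval -4.44 to -4.09). ITGA1 (span 171 kb, exons 18.6 kb), the other widely expressed collagen receptor, stood at 1.37, 6.69 and 1.40 with AL-X, against 8.88, 26.6 and 2.56 with DMSO. Its fold was -1.86 (SE 0.72, edgeR adjusted p = 0.258), and DESeq2 called it (adjusted p = 0.0289, range 0.0289 to 0.675 over 12 alternatives). ITGA1 shares 475 exonic bases with PELO on the same strand, so part of its reads is uncertain. ITGA11 had 64 counts with AL-X and 576 with DMSO in A549 and 0 in every other library.

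The laminin receptors ITGA3 and ITGA6 were, with ITGB1, the integrin subunits with the highest DMSO level per exonic length. ITGA3 (span 34.5 kb, exons 9.80 kb), the α3 subunit, stood at 1046, 734 and 2067 with AL-X, against 494, 695 and 1088 with DMSO (fold 0.70, SE 0.68, edgeR adjusted p = 0.618, and 0.27 with library totals). The A549 log2 fold of ITGA3 was 1.08 on TMM scaling and 0.09 with library totals. ITGA6 (span 78.9 kb, exons 6.53 kb), the α6 subunit, stood at 92.8, 138 and 182 with AL-X, against 153, 188 and 189.8 with DMSO (fold -0.41, SE 0.49, edgeR adjusted p = 0.685). ITGB4 (span 36.5 kb, exons 6.76 kb), the β4 subunit of hemidesmosomes and the partner of α6, stood at 115, 8.60 and 59.8 with AL-X, against 201, 30.3 and 77.4 with DMSO. It was lower in 3 of 3 lines (fold -0.997, SE 0.49, edgeR adjusted p = 0.347). ITGB1 (span 105 kb, exons 6.01 kb), the common β1 subunit, had the highest level per exonic length of all members, at 161 CPM per kb over the AL-X libraries and 189 over the DMSO libraries. Its fold was 0.31 (SE 0.69, edgeR adjusted p = 0.840), and -0.12 with library totals. Counts of its processed pseudogene ITGB1P1 were 2.29% to 2.60% of those of ITGB1 with AL-X and 2.07% to 2.39% with DMSO, and whether reads were split between them was not tested.

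Subunits of the fibronectin and vitronectin receptors were among the highest folds of HCC827. ITGA5 (ENSG00000161638, chromosome 12, 54395261 to 54419460, span 24.2 kb, exons 7.58 kb), the fibronectin receptor subunit, stood at 53.9, 468 and 463 TMM-scaled CPM with AL-X in A549, HCC827 and H1975, against 68.6, 84.0 and 315 with DMSO. In HCC827 its log2 fold was 2.48 (95% counting interval 2.45 to 2.51). ITGB3 (span 58.0 kb, exons 4.39 kb), the β3 partner of αV, stood at 9.56, 21.5 and 40.2 with AL-X, against 21.4, 4.67 and 29.9 with DMSO, with a log2 fold of 2.196 in HCC827. The difference of HCC827 from the other lines missed the threshold for both, at 2.37 log2 units for ITGA5 (SE 1.16, edgeR interaction adjusted p = 0.583) and 2.57 for ITGB3 (SE 1.28, edgeR interaction adjusted p = 0.595). ITGAV (span 90.8 kb, exons 8.21 kb), the αV subunit, stood at 154, 138 and 134 with AL-X, against 305, 157 and 136 with DMSO. ITGB6 (span 101 kb, exons 4.69 kb), the epithelial β6 subunit that with αV activates TGF-beta, stood at 0.267, 16.4 and 78.2 with AL-X, against 1.87, 42.5 and 51.5 with DMSO.

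ITGB8 (ENSG00000105855, chromosome 7, 20330702 to 20415754, span 85.1 kb, exons 15.2 kb), the β8 subunit and another activator of TGF-beta, had the lowest across-line fold of all members tested. It stood at 0, 0.361 and 0.544 TMM-scaled CPM with AL-X in A549, HCC827 and H1975, against 2.31, 20.4 and 1.35 with DMSO. The groups did not overlap. This was so for 2 members tested, ITGB8 below and ITGAE above, where 9.54% of all genes tested lay wholly below and 7.78% wholly above. In A549 it had 0 counts with AL-X and 282 with DMSO, at least 52.0-fold lower. In HCC827 it had 45 and 3014 counts, a log2 fold of -5.76 (95% counting interval -6.28 to -5.40). The across-line fold was -4.99 (SE 1.505, edgeR adjusted p = 0.174). DESeq2 (adjusted p = 0.000117), limma-voom (adjusted p = 0.0238) and edgeR without H1975 (adjusted p = 0.0113, where 0.364% of all genes were called lower) called it, with a range of 0.000117 to 0.581 over 12 alternatives. ITGB8 is a member through DMSO libraries alone.

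Of the integrin subunits of leukocytes, ITGAL and ITGAM stayed under 3 TMM-scaled CPM in every library. ITGB2 and ITGAE stood above 3 in every library, and ITGAX did so in the HCC827 libraries and in A549 with DMSO. The leukocyte marker list, with PTPRC and CD3E at 0 in every library, summed to 12.2, 474 and 49.3 CPM with AL-X in A549, HCC827 and H1975, against 21.4, 81.5 and 102 with DMSO, and its part in these levels was not tested. ITGAE (span 86.6 kb, exons 6.66 kb), the subunit of lymphocytes that bind E-cadherin, stood at 20.1, 9.05 and 11.0 TMM-scaled CPM with AL-X in A549, HCC827 and H1975, against 8.89, 8.55 and 6.80 with DMSO. On TMM scaling ITGAE was 2-fold higher in A549 (log2 fold 1.17, 95% counting interval 1.06 to 1.29), while library totals gave 0.18 there. In HCC827 it was nearly level (0.08). It shares 427 exonic bases with HASPIN on the opposite strand. ITGB2, the common leukocyte β2 subunit, stood at 7.73, 34.1 and 29.5 with AL-X in A549, HCC827 and H1975, against 8.61, 28.9 and 13.8 with DMSO. Its log2 fold was -0.15 in A549 and 1.09 in H1975, the latter 0.68 with library totals. ITGAX, an alpha partner of β2, stood at 0.713, 8.87 and 0.652 with AL-X, against 3.59, 4.68 and 1.78 with DMSO. ITGA4 was detected in A549 only, with 63 counts with AL-X and 437 with DMSO. Of the 2 symbol matches, ITGB3BP had a fold of -0.15 (SE 0.57, edgeR adjusted p = 0.915) and ITGBL1 of -0.34 (SE 0.83, edgeR adjusted p = 0.858).

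The genes that make, cross-link, bind or cut the matrix were read from fixed lists, naming the highest and lowest fold, except the highest of the TGF-beta list, among those with 5 CPM or more in any library. Of 31 tested genes for collagen biosynthesis and cross-linking 0 were called, and 17 lay above 0 and 14 below. P4HB, the prolyl hydroxylase beta subunit, was highest at 1.297 (SE 0.67, edgeR adjusted p = 0.366), with 2027, 752 and 1544 TMM-scaled CPM with AL-X in A549, HCC827 and H1975 against 692, 353 and 649 with DMSO. PXDN, which cross-links type IV collagen, was lowest at -1.66 (SE 0.85, edgeR adjusted p = 0.366). Of 20 other basement membrane and matrix genes tested 7 lay above 0 and 13 below. CCN2, a matricellular protein, was the only 1 called, as higher (6.43, SE 0.92, edgeR adjusted p = 0.0184), where 0.0983% of all genes were. FRAS1, of the epithelial basement membrane, was lowest at -3.33 (SE 0.78, edgeR adjusted p = 0.111). Among 33 integrin activation and focal adhesion genes 0 were called, with ZYX, zyxin, highest at 2.22 (SE 0.65, edgeR adjusted p = 0.164) and TNS3, tensin 3, lowest at -2.85 (SE 0.73, edgeR adjusted p = 0.130). Among 15 other receptors, a list that also holds the member COL17A1, 0 were called. SDC4, syndecan 4, was highest at 1.64 (SE 0.76) and DST, the hemidesmosome plakin dystonin, lowest at -1.59 (SE 0.68). Among 24 proteases and inhibitors 0 were called, with ADAMTS1 highest at 4.02 (SE 1.77) and MMP13 lowest at -0.90 (SE 0.84). Among 16 TGF-beta genes 0 were called, with SMAD3, a signal transducer, lowest at -1.75 (SE 0.77).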

How the data were processed

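Total RNA of 3 lung cancer lines was made into 6 libraries and sequenced from both ends. Per the labels' protocols, extraction used Trizol and library construction a SureSelect XT HS2 mRNA kit. The submitters' processing notes name bcl2fastq 2.20 and GRCh38, while for the aligner, counter, annotation release and strand setting the entry is: not given in the sources used here. Raw counts, whole and unscaled, were deposited by the authors for 60671 Ensembl genes, of which 60401 matched a symbol and 58453 were in GENCODE release 29, which gave gene type, position and length. Exonic length merges all annotated exons of a gene.

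The labels give each library's cell line, which pairs AL-X with DMSO. The fit was edgeR 4.0.16 in R 4.3.3 (TMM, filterByExpr, line plus treatment, robust quasi-likelihood test, 2 residual degrees of freedom), adjusted over the 20344 genes that passed and called at adjusted p under 0.05. An SE came from the fold and its F value. The HCC827 interaction left 1 residual degree of freedom. Within-line log2 folds used TMM-scaled CPM with a prior count of 2. Exact binomial 95% intervals of count ratios and the floor of 3 counts cover counting error only. Promoter windows are RefSeq's, 250 bases before a start.

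Alternatives tried were library totals and DESeq2 size factors as scaling, mitochondrial genes left out, no filter, 1 CPM in 3 libraries, DESeq2 1.42.0, limma-voom (limma 3.58.1), no robust shrinkage, no block, each line left out, prior counts of 0.5 and 5, and minimums of 1 and 10 CPM. Fits were tested on simulated counts. Named genes were members at 2-fold in all 3 lines, the 3 highest and 3 lowest of each line at 10 CPM or more, fixed chains of laminins, type IV collagen and integrins, the 3 highest per length of each family, and the highest and lowest gene of each list. The other genes named, among them COL24A1, COL1A1, COL27A1, COL6A2, COL12A1, COL17A1, COL2A1, LAMA2, ITGA1, ITGA11, ITGA4, ITGB2, ITGAX, ITGAL and ITGAM, were picked once their values had been seen. Some genes that the rule names are not reported here. The members and lists were chosen with earlier results of these data known.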

Additional observations from a re-analysis of the deposited data

Results flagged for a closer look

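COL5A2, a chain of type V collagen, responded differently in HCC827 than in A549 and H1975, by 5.16 log2 units. The test was the interaction term in edgeR, with 1 library per line and treatment. The DMSO library of HCC827 had only 0.665 TMM-scaled CPM, against 11.5 in its AL-X library. No other member was called by that test, and A549 and H1975 each set against the other lines gave 0 members of 57. With 3 libraries a treatment, single libraries were not screened for outlying values.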

How the results depend on the processing

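The count of members called lower was 6 by DESeq2 (7.51% of all genes), 2 by limma-voom (1.66%) and 0 to 1 with a line left out, where H1975 was the line whose absence gave 1 (0.364%), and 0 under each other alternative. The count called higher was 0 under all 12 alternatives. Without the replicate block by cell line 0 members were called either way. Within lines, library totals gave 1 member higher and 29 lower in A549, with a median of -2.06 instead of -1.07, a median of -0.57 instead of -0.69 in HCC827, and 3 higher and 7 lower in H1975, with a median of -0.10 instead of 0.31. A minimum of 1 CPM gave 5 higher of 53 in A549, instead of 3 of 38, and 8 lower of 44 in H1975, instead of 2 of 31. The share of all genes at that minimum is not given here, so these counts have no background beside them. The HCC827 interaction called 0 members with library totals and 0 with no filter. Of 334 values of 28 named members under the alternatives, 310 kept direction and side of the threshold, 7 passed it and 17 turned sign, each for a member whose fold was within its SE of 0. With library totals COL18A1 was -0.13, COL5A2 -0.16, ITGB1 -0.12 and LAMC1 -0.37. Without the block COL18A1 was -0.0176, COL5A1 0.19 and COL5A2 -1.51. COL5A2 was -0.12 by limma-voom and LAMC1 -0.0494 with no filter. With a line left out COL13A1 ran from -1.74 to 0.21, COL18A1 from -0.16 to 0.63, COL5A1 from -1.22 to 0.74, COL5A2 from -1.09 to 1.96, COL7A1 from -1.18 to 0.31, ITGB3 from -0.40 to 1.36 and LAMC1 from -0.0645 to 0.26, at -0.0335 without H1975. The cause of these changes was not tested. Members with few counts, such as ITGB8 in A549 and COL4A5 in H1975, are limited by depth.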
